A study of Mus musculus with 36 samples.

Results

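The 6 genes Tcf7l2, Rora, Prkcd, Slc17a6, Adcyap1 and Cbln1 are expressed by excitatory neurons of the thalamus and midbrain, and their messenger RNA was followed here across 3 brain regions of mice given modafinil or saline. Every probe set (a group of short probes that reads part of a transcript) whose annotation names exactly 1 of these symbols was taken, which gave 22 of the 45101 probe sets on the array and 6 of 18193 genes, and no probe set named a member together with another gene. Rora had 9 probe sets, Tcf7l2 4, Cbln1 3, and Prkcd, Slc17a6 and Adcyap1 2 each. The 36 arrays came from male C57B1/6J mice that had gone through a conditioned place preference test, which records whether animals return to the compartment where a drug was given. All mice received saline on alternate days, and on drug days (within days 3 to 10) the treated groups were injected with modafinil, a wakefulness-promoting drug, at 65 mg/kg, while the control groups, called vehicle here, again had saline. Tissue was taken on day 11, 24 h after the last dose, as punches 1 mm wide from slices 100 µm thick. The ventral tegmental area (VTA) of the midbrain and the nucleus accumbens (NAC) were each read on 5 vehicle and 5 modafinil arrays, and the prefrontal cortex (PFC) on 8 and 8. RNA of 2 tissue pieces was pooled for an array where its integrity number was above 7. The labels do not say that the arrays of a group came from separate mice, so the p-values speak only to the spread between the samples at hand.

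Thalamic relay neurons and many midbrain neurons release glutamate, which they load into synaptic vesicles with the transporter VGLUT2, the product of Slc17a6. The transcription factor Tcf7l2, a nuclear partner of beta-catenin in Wnt signalling, sets the identity of thalamic and habenular neurons, and Rora encodes an orphan nuclear receptor found in sensory thalamus and in cerebellar Purkinje cells. Prkcd encodes protein kinase C delta, which is abundant in thalamic relay neurons. Adcyap1 encodes PACAP, a neuropeptide that acts on the receptor made from Adcyap1r1, and Cbln1 encodes a secreted protein that bridges neurexins on axons to delta glutamate receptors on the receiving cell.

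Prkcd and Rora moved together in VTA, and the DNA at their starts is shown for that reason. The windows run from 250 bases before to 50 bases after the annotated start (RefSeq, GRCm38.p6, printed along the gene's strand), and 5 of the 6 genes matched an entry. Prkcd has 2 windows, of which the upstream one is printed, at chr14:30626159-30626458 on the minus strand. The Rora window lies at chr9:68653536-68653835 on the plus strand. Capitals mark the single motif match in these 2 windows.
Prkcd: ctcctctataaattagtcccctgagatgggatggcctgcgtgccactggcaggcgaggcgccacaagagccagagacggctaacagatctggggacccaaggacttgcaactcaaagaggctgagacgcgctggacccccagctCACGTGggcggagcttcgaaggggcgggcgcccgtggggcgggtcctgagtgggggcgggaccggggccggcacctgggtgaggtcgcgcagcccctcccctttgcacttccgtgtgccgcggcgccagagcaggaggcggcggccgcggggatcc
Rora: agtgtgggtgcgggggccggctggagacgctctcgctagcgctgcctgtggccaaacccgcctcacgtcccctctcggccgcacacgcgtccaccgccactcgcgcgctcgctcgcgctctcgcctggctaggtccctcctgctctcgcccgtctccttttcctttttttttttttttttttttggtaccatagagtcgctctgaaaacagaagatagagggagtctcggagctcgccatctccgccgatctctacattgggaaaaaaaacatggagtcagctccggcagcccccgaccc
Searched on both strands were TAGGTCA (bound by ROR receptors), ATCAAAG or TTCAAAG (bound by Tcf7l2 and its relatives), TGACGTC (a cyclic AMP response element core) and CACGTG (an E-box). The E-box was found in the Prkcd window, with its first base at −106 from the start, and 7.17% of 32544 different promoter windows of that length hold one. Neither the ROR sequence, held by 2.61% of windows, nor the Tcf7l2-type sequences, held by 8.67%, occurred in the 9 windows of the 5 genes. TGACGTC, held by 3.22%, occurred in both overlapping Adcyap1 windows. These matches describe letters in the windows and were not set against the array values.

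The values are log2 expression values, and levels of different probe sets are not set against each other. Th, which encodes the rate-limiting enzyme of dopamine synthesis, lay between 8.59 and 10.72 in vehicle VTA arrays and between 6.60 and 7.44 in vehicle NAC arrays. It did not set the regions apart in every array. Modafinil array 1 of VTA had Th at 6.74, inside the vehicle NAC range. Vehicle array 4 of PFC had 8.84, above the lowest vehicle VTA array. The PFC arrays had a higher median over all probe sets (7.20 to 7.27) than VTA (6.76 to 6.81) or NAC arrays (6.79 to 6.90), so PFC levels are given as a description with no test, and again after quantile normalization of all 36 arrays. Each gene is described by its brightest probe set (by mean over the 36 arrays) unless another is named. In bulk tissue, fewer cells of a type and less RNA per cell cannot be told apart.

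In vehicle mice 5 of the 6 genes stood higher in VTA than in NAC, and their brightest probe sets did not overlap between these regions (20.8% of all tested probe sets were lower in NAC without overlap). Rora did not pass the test in its brightest probe set. Slc17a6 showed the widest gap, with 11.91 ± 0.22 in VTA (SD, n = 5) against 8.58, 8.05, 8.41, 8.24 and 5.86 in the 5 NAC arrays. All VTA arrays lay above all NAC arrays, and vehicle array 5 of NAC stood far below the other 4. NAC minus VTA was −4.08 (SE 0.34, limma adjusted p = 4.45e-09) and −3.47 in the second Slc17a6 probe set.

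Among the transcription factor genes, Tcf7l2 stood at 9.98 ± 0.76 in VTA and at 6.94 ± 0.21 in NAC, a difference of −3.05 (SE 0.26, limma adjusted p = 5.99e-09), with no overlap. Other Tcf7l2 probe sets were lower in NAC by 3.03 and 2.75 on the log2 scale, and the remaining one did not pass the filter on low values. Rora stood at 9.34 ± 0.29 in VTA and 9.22 ± 0.21 in NAC, and these values overlapped (difference −0.12, SE 0.12, limma adjusted p = 0.374). The other Rora probe sets did not move one way. Probe set 1436325_at was lower in NAC by 1.52 and 1424034_at by 0.57 (log2), 1458145_at was higher by 0.47, 3 others did not pass the test and 2 did not pass the filter.

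The kinase, peptide and synaptic genes were also lower in NAC. Prkcd stood at 8.11 ± 0.92 in VTA and 6.58 ± 0.094 in NAC (difference −1.53, SE 0.27, limma adjusted p = 7.84e-05). Its values were spread over 2.29 log2 units among the 5 VTA arrays and over 0.24 among the 5 NAC arrays. The fit shares a single spread over the regions, so the SE of 0.27 is too small for the VTA arrays. The second Prkcd probe set gave −0.35 (adjusted p = 0.127). Adcyap1 was lower in NAC by 1.86 (SE 0.21), from 9.48 ± 0.36 to 7.62 ± 0.61, and by 3.74 in its second probe set. Cbln1 was lower by 2.25 (SE 0.30), from 9.30 ± 0.71 to 7.05 ± 0.45, and by 3.62 and 2.60 in the other 2. Of the 19 member probe sets that passed the filter, 13 were lower in NAC, 1 was higher and 5 were not called, with a median of −1.86. Over all 27022 probe sets tested, 28.8% were lower, 30.3% higher and 59% called in either direction, with a median of 0.01. The filter used means that include the VTA arrays, where most members were high, so the members' counts are a description.

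The 3 regions did not rank the 6 genes alike. Slc17a6 had its second level in PFC, at 9.25, 9.61 and 9.70 (lowest, median and highest of 8 vehicle arrays), which overlapped neither VTA nor NAC, on either scale. In its other probe set, 1418610_at, PFC overlapped NAC on both scales and lay below VTA. Adcyap1 had 9.57 ± 0.11 in PFC beside 9.48 ± 0.36 in VTA, and these groups overlapped, also after quantile normalization (9.32 ± 0.12 and 9.69 ± 0.36). Tcf7l2 in PFC (6.91 ± 0.30) overlapped NAC and lay below every VTA array. Prkcd had 6.98 ± 0.10 and Cbln1 7.91 ± 0.45 in PFC. Both overlapped VTA on the deposited scale and no longer did after quantile normalization. Rora was highest in PFC as deposited (9.89 ± 0.11), above all VTA and NAC vehicle arrays. After quantile normalization its 3 means were 9.52 in VTA, 9.40 in NAC and 9.63 in PFC, and all 3 groups overlapped, so its order differed between the scales.

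**Figure D1:**
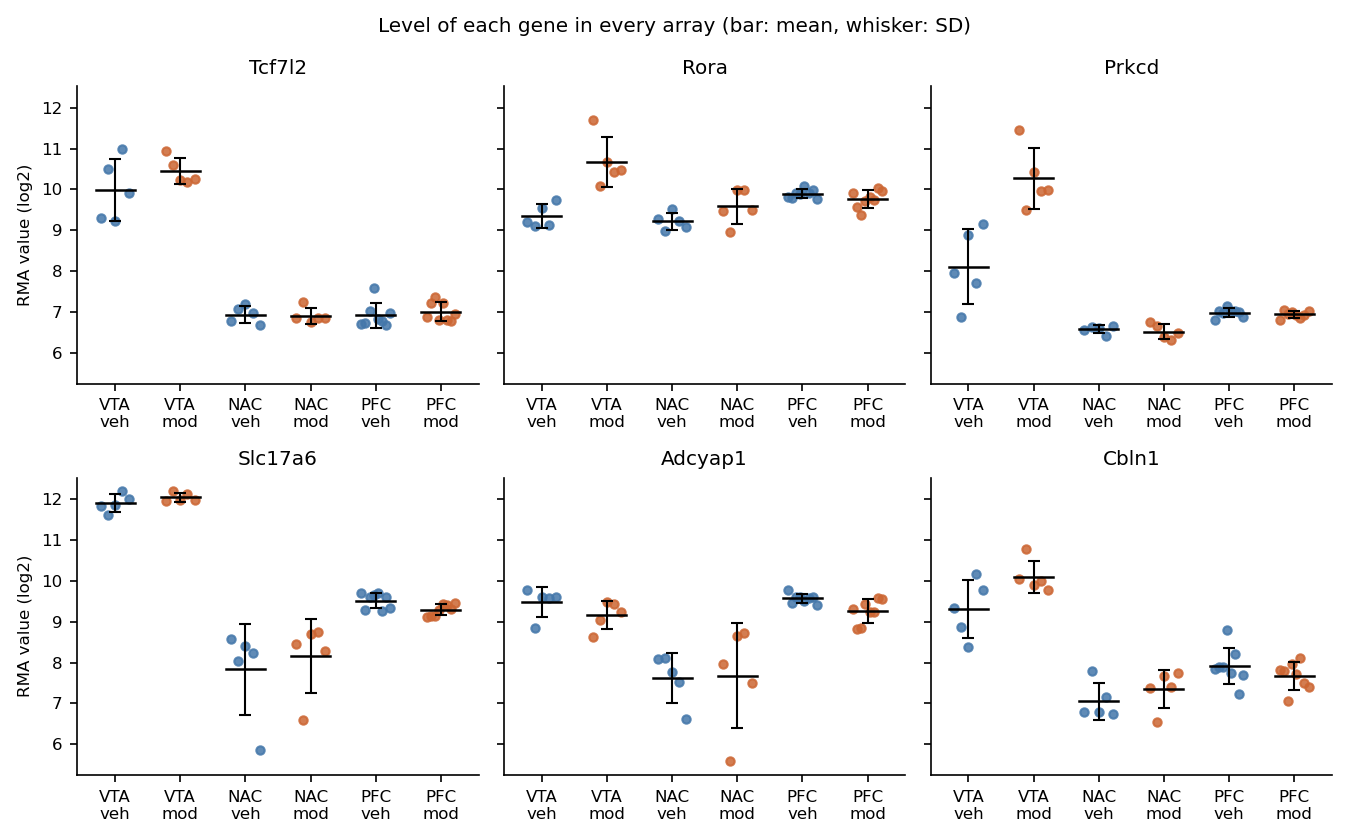
Log2 value of the brightest probe set of each gene (y axis) in every array of the 6 groups (x axis; veh, vehicle in blue; mod, modafinil in orange), with the group mean (bar) and SD (whisker). Prkcd and Rora in VTA are higher in all 5 modafinil arrays than in any vehicle array, and 1 vehicle and 1 modafinil array of NAC lie low in Slc17a6 and Adcyap1.

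Within NAC, 2 arrays stood apart in more than one gene. Vehicle array 5 and modafinil array 2 had Slc17a6 at 5.86 and 6.59, where the other 8 lay between 8.05 and 8.76, and Adcyap1 at 6.61 and 5.58, where the others lay between 7.50 and 8.73. The same 2 arrays had the lowest mean level of 5 cortical neuron genes (6.28 and 5.71, against 7.77 to 9.13 in the others), and their part in these levels was not tested. In PFC, vehicle array 4 had the highest Tcf7l2 (7.60) and Cbln1 (8.79) and also a Th value of 8.84, above vehicle array 3 (7.85) and the remaining PFC arrays (6.52 to 6.95).

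Modafinil against vehicle in VTA asked whether these genes differed in the midbrain punches after the drug conditioning. Prkcd and Rora were higher in every modafinil array than in any vehicle array. Prkcd read 7.96, 6.86, 8.87, 7.70 and 9.15 in vehicle arrays 1 to 5, and 11.47, 9.50, 10.44, 9.95 and 9.99 in modafinil arrays 1 to 5. Vehicle array 2 was the lowest and modafinil array 1 the highest. The difference was 2.16 (SE 0.43, 4.47-fold), with limma adjusted p = 0.0523, just short of the threshold of 0.05, and an exact two-sided permutation p of 0.00794, the smallest that 5 against 5 arrays allow. That permutation p is unadjusted and only restates that the groups do not overlap, as in 1.81% of all tested probe sets with modafinil higher. Prkcd was chosen with earlier results of these data known, so the permutation p is a description. The second Prkcd probe set, 1442256_at, rose by 1.67 (SE 0.29, 3.19-fold, limma adjusted p = 0.0462).

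Rora read 9.19, 9.11, 9.55, 9.12 and 9.75 in the vehicle arrays and 11.70, 10.08, 10.67, 10.43 and 10.47 in the modafinil arrays. The order of the arrays was the order seen for Prkcd, with modafinil array 1 on top. The difference was 1.33 (SE 0.25, limma adjusted p = 0.0514). Probe sets 1458129_at and 1424034_at of Rora rose by 1.29 (SE 0.20, adjusted p = 0.0454) and 1.27 (SE 0.22, adjusted p = 0.0462). Of the 9 Rora probe sets, 6 had no overlap between the groups, with differences of 0.84 to 1.33. The other 3, 1436325_at, 1441085_at and 1458145_at, had differences of 0.08, 0.14 and 0.11, and overlapped between the groups. Which transcripts each probe set reads was not analysed here.

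Tcf7l2, the gene of the thalamic transcription factor, overlapped between the groups. It read 9.29, 10.50, 9.23, 10.98 and 9.91 in vehicle arrays and 10.93, 10.61, 10.23, 10.19 and 10.26 in modafinil arrays. The vehicle arrays spanned the whole range and vehicle array 4 was the highest of all 10. The difference was 0.46 (SE 0.30, limma adjusted p = 0.388), and 0.71 (SE 0.25, adjusted p = 0.145) without vehicle array 4. That array also had the highest vehicle values of Slc17a6 (12.20) and Cbln1 (10.16). Its mean over 3 habenular neuron genes was 9.01, against 5.12 to 6.13 in the other 9 VTA arrays.

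Cbln1 read 9.33, 8.86, 8.38, 10.16 and 9.78 in vehicle arrays and 10.05, 10.78, 9.90, 10.01 and 9.78 in modafinil arrays. Only modafinil array 2 lay above all vehicle arrays. The difference was 0.80 (SE 0.30, limma adjusted p = 0.162), with 0.72 and 0.55 in the other 2 probe sets.

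Slc17a6, the vesicular transporter gene, had the smallest SDs of the 6 brightest probe sets in VTA. It read 11.84, 11.62, 11.86, 12.20 and 12.02 with vehicle and 11.96, 12.20, 11.98, 12.13 and 11.97 with modafinil, a difference of 0.14 (SE 0.099, limma adjusted p = 0.409). Its dimmer probe set 1418610_at was higher in all 5 modafinil arrays, by 0.43 (SE 0.10, adjusted p = 0.0694). Adcyap1 was the one gene with negative values in both probe sets. It read 9.78, 8.85, 9.60, 9.58 and 9.60 with vehicle and 8.63, 9.03, 9.48, 9.43 and 9.23 with modafinil (difference −0.32, SE 0.19, limma adjusted p = 0.33), and −0.63 (SE 0.23, adjusted p = 0.159) in the second. Its groups overlapped.

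All 22 member probe sets were tested in VTA. With limma 3 were called, all higher with modafinil, where 0.189% of all tested probe sets were called higher and 0.259% in either direction. The members' median difference was 0.66 with 20 positive values, against −0.047 and 36.2% positive over all tested. In 9 probe sets (both of Prkcd, 6 of Rora and 1 of Slc17a6) the modafinil arrays lay above all vehicle arrays, as did 1.81% of all tested. The members were chosen with earlier results of these data known. Of the 22 probe sets, 9 read Rora and 4 Tcf7l2, so they are not separate observations. The counts and medians here and in the other regions are therefore a description. The 3 calls became 0 when vehicle array 1, 2 or 3 or modafinil array 2, 4 or 5 was left out. They became 1 without vehicle array 4, and 5 without vehicle array 5 or modafinil array 1. The differences moved less, between 1.85 and 2.42 for Prkcd and between 1.07 and 1.47 for Rora over the same omissions.

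**Figure D2:**
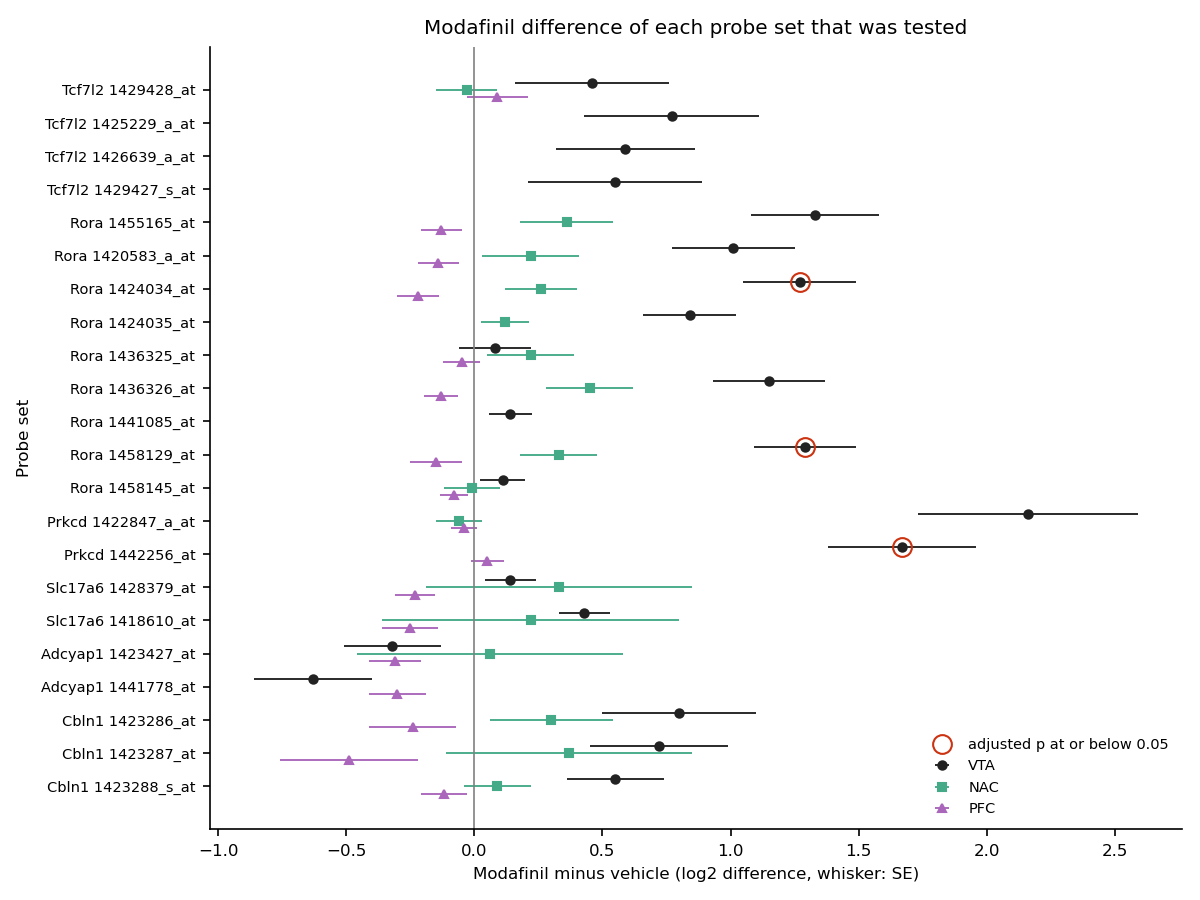
Modafinil minus vehicle for each probe set that passed the filter (rows, by gene; x axis, log2 difference with SE as whisker) in VTA (circles), NAC (squares) and PFC (triangles). The Prkcd probe sets and 6 of the 9 Rora probe sets lie between 0.84 and 2.16 in VTA, and the 3 ringed values passed the adjusted p of 0.05.

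In NAC and PFC no member probe set was called. In NAC 16 were tested and 13 had positive values, with a median of 0.22 against −0.015 over all tested. Limma called 0% of all probe sets there, and 2 members had an unadjusted p under 0.05 (874 of all 27022 tested). Prkcd, which had the largest difference in VTA, was at 6.42 to 6.66 in vehicle and 6.32 to 6.75 in modafinil NAC arrays (difference −0.06, SE 0.091). Rora was at 9.29, 8.98, 9.53, 9.22 and 9.09 against 9.46, 8.97, 9.99, 9.99 and 9.51, a difference of 0.36 (SE 0.18, limma adjusted p = 1). Modafinil arrays 3 and 4 were above every vehicle array, and modafinil array 2 was below all of them. For Slc17a6 the difference was 0.33 (SE 0.52), and 0.23 (SE 0.13) without the 2 low arrays.

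In PFC 17 were tested and 15 had negative values, with a median of −0.14 against −0.028 over all tested. Limma called 0.0518% of all probe sets, and 5 members had an unadjusted p under 0.05 (3181 of all 27022 tested), with a lowest adjusted p of 0.297. That value belonged to Adcyap1, which had 9.41, 9.59 and 9.78 (lowest, median and highest) with vehicle and 8.82, 9.28 and 9.58 with modafinil, a difference of −0.31 (SE 0.10). The groups overlapped, and no modafinil array exceeded the highest vehicle array. Slc17a6 had 9.25, 9.61 and 9.70 against 9.13, 9.30 and 9.45 (difference −0.23, SE 0.078, limma adjusted p = 0.326). Prkcd differed by −0.04 (SE 0.052) and Rora by −0.13 (SE 0.080), both with overlap. Across the 3 regions together 0 of 19 member probe sets were called by limma (0.84% of all tested), with a lowest adjusted p of 0.115. Of these 19, 7 had an unadjusted p under 0.05, as had 4479 of all 27022 tested.

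The modafinil difference in VTA was tested against that in the other regions with the arrays of all 6 groups. Against NAC, 2 of 19 member probe sets were called, both of Prkcd and both larger in VTA (0.244% of all tested were called in that direction and 0.274% in either). Their differences of differences were 2.22 (SE 0.37, limma adjusted p = 0.00305) and 1.72 (SE 0.26, adjusted p = 0.000835). The brightest Rora probe set gave 0.96 (SE 0.27, adjusted p = 0.118). Against PFC, 7 of 19 were called, all larger in VTA (0.736% in that direction, 0.903% in either). These were Prkcd with 2.20 (SE 0.33, limma adjusted p = 0.00039) and 1.62, and 5 Rora probe sets with 1.15 to 1.49. Both contrasts use the same VTA arrays. The fit shares a single spread over the 6 groups. The brightest Prkcd probe set had SDs of 0.92 and 0.75 in VTA, and of 0.094 and 0.18 in NAC. Its SEs here are smaller than the SE of its VTA difference alone, so they are too small and the p-values too low. The same limit holds for Rora, with SDs of 0.29 and 0.61 in VTA and of 0.11 and 0.22 in PFC. Cbln1 gave 1.04 (SE 0.35, adjusted p = 0.173) and Tcf7l2 0.37 (SE 0.28, adjusted p = 0.641) against PFC.

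Th varied widely among the VTA arrays, and the members were read beside it. Th stood at 10.72, 9.91, 9.60, 8.59 and 9.04 in vehicle arrays 1 to 5, and at 6.74, 8.22, 8.21, 7.55 and 9.65 in modafinil arrays 1 to 5. Slc6a3, the dopamine transporter gene, was likewise lowest in modafinil array 1 (8.08) and highest in vehicle array 1 (12.43). Modafinil array 1, with the lowest Th, had the highest Prkcd and Rora. Modafinil array 5, with Th inside the vehicle range, had Prkcd at 9.99 and Rora at 10.47, above all vehicle arrays. The other modafinil arrays had Th below every vehicle array, so Th and treatment largely went together and a single array cannot separate them.

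Within treatment the slope of each probe set on Th was tested with limma over the 10 VTA arrays. None of the 22 was called (0.0185% of all tested were), and the lowest adjusted p was 0.999. Of the 22, 2 had an unadjusted p under 0.05, as had 1265 of all 27021 tested. The slopes per log2 unit of Th were −0.37 (SE 0.24) for Prkcd, −0.33 (SE 0.15) for Tcf7l2, −0.26 (SE 0.13) for Rora, −0.21 (SE 0.17) for Cbln1, −0.08 (SE 0.056) for Slc17a6 and 0.09 (SE 0.11) for Adcyap1. With Th as a covariate no member was called between modafinil and vehicle, and the difference was 1.60 (SE 0.54, limma adjusted p = 0.435) for Prkcd, 0.94 (SE 0.29, adjusted p = 0.435) for Rora and −0.03 (SE 0.35) for Tcf7l2.

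For the 4 genes whose groups overlapped, 10 arrays gave a correlation with Th, in a family of 6 relations computed. These pooled values include the treatment difference in Th, so the correlation of deviations from the treatment means is given beside each as a description. For Tcf7l2 Pearson r was −0.64 (permutation p = 0.0486) and Spearman rho −0.39 (permutation p = 0.262), and r was −0.29 without vehicle array 1 and modafinil array 1, so it rested on these 2, and the deviations correlated at −0.54. Cbln1 had r −0.62 (permutation p = 0.0578) and rho −0.71 (permutation p = 0.0274), r −0.71 without the 2 arrays and −0.35 for the deviations. Slc17a6 had r −0.57 (permutation p = 0.0811) and rho −0.56 (permutation p = 0.0951), r −0.76 without them and −0.43 for the deviations. Adcyap1 had r 0.46 (permutation p = 0.178), rho 0.42 (permutation p = 0.233) and r −0.26 without them, a change of sign, with 0.25 for the deviations. Prkcd and Rora form 2 separate clusters by treatment, so no pooled value is given for them. Their deviations correlated with those of Th at −0.42 and −0.52.

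**Figure D3:**
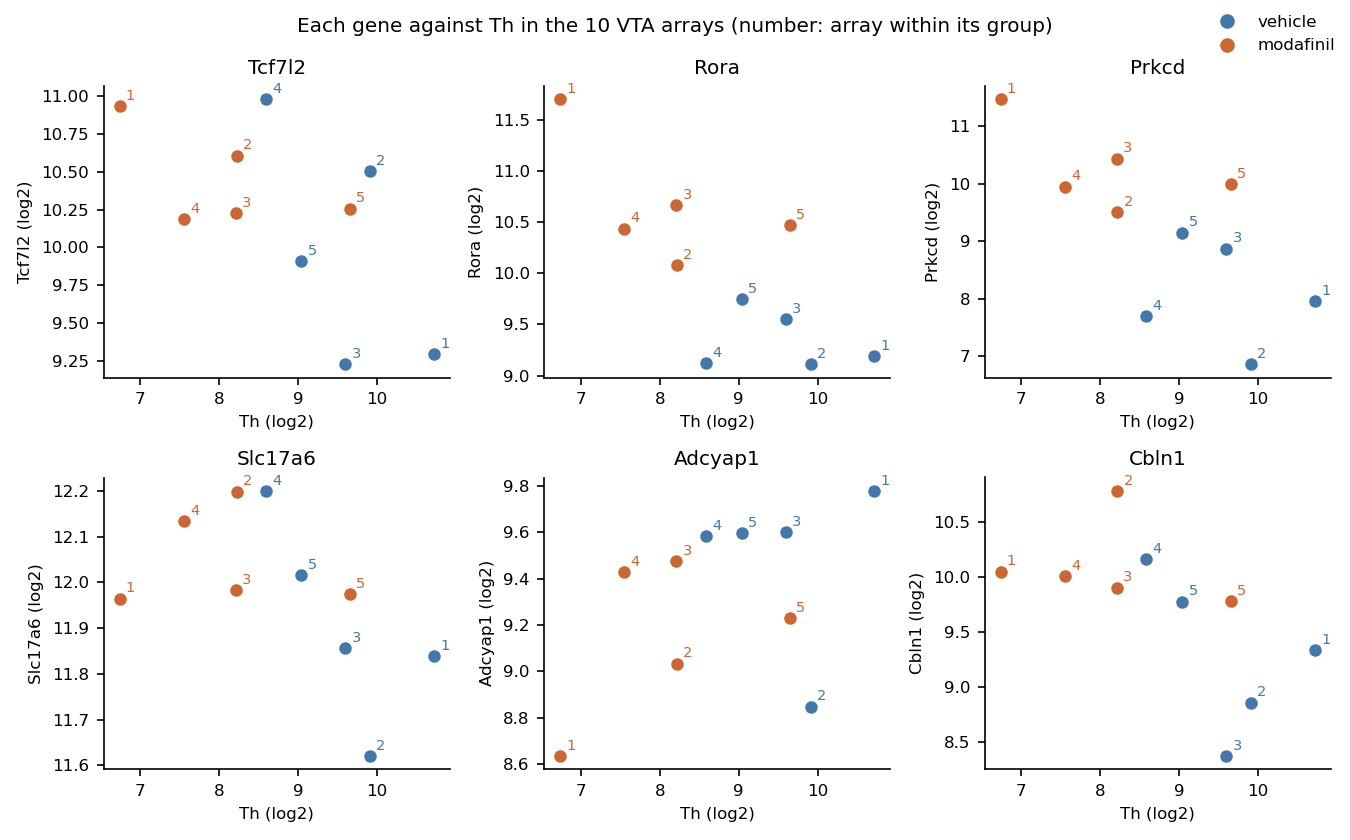
Log2 value of each gene (y axis) against Th (x axis, log2) in the 10 VTA arrays, vehicle in blue and modafinil in orange, numbered within their group. Modafinil array 1 has the lowest Th (6.74) and the highest Prkcd (11.47) and Rora (11.70). Modafinil array 5 has Th at 9.65 with Prkcd at 9.99, and the other modafinil arrays lie below every vehicle array in Th.

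Among themselves the 6 genes did not vary as 1 group across the 10 VTA arrays, which share their dissection and treatment groups, and these values are given as a description. Prkcd and Rora ranked the arrays identically (r 0.96, rho 1.0), and their deviations from the treatment means still correlated at 0.87. Slc17a6 and Cbln1 followed each other (r 0.82, deviations 0.78). Tcf7l2 went with Cbln1 (r 0.65) and opposite to Adcyap1 (r −0.66), and hardly with Prkcd (r 0.19, deviations −0.27). Outside VTA the pairs were others. Prkcd and Rora had r −0.69 over the 10 NAC arrays and 0.06 over the 16 PFC arrays, where Prkcd hardly varied. Slc17a6 and Adcyap1 had r 0.85 in NAC, where the same 2 arrays were low in both, and Rora and Adcyap1 had r 0.78 in PFC.

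**Figure D4:**
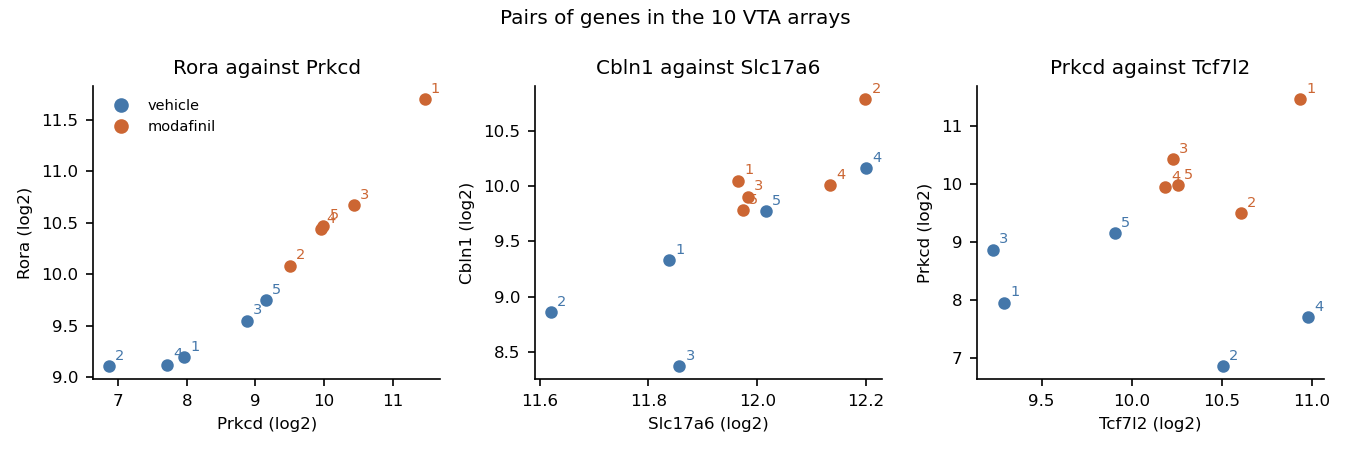
Log2 values of 3 pairs of genes in the 10 VTA arrays, vehicle in blue and modafinil in orange, numbered within their group. Rora rises with Prkcd through both groups (r 0.96), Cbln1 with Slc17a6 (r 0.82), and Prkcd shows little relation to Tcf7l2 (r 0.19).

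The genes most like each member over the 10 VTA arrays were taken from 12546 genes by Pearson r. For Prkcd they were Gabrd (0.995), which encodes a GABA-A receptor subunit, Tnnt1 (0.991), a troponin gene, and Ramp3 (0.983), a receptor accessory protein gene. For Rora they were Shank3 (0.996), a postsynaptic scaffold gene, Tiam1 (0.992), a Rac activator gene, and Ptpn4 (0.989), a phosphatase gene. Cbln1 was most like Wnt4 (0.962), Cbln4 (0.942), a relative of its own family, and Prdm6 (0.941). Slc17a6 was most like Foxp2 (0.959), Ctxn3 (0.955) and Tug1 (0.949), and Adcyap1 most like Elp3 (0.981), Zscan18 (0.976) and Snrpb2 (0.972). Tcf7l2 had no such close companion, with Shmt1 (0.861), Ypel2 (0.860) and Cpne9 (0.858). The high values for Prkcd and Rora include the shared treatment difference. For deviations from the treatment means, r with Prkcd was 0.985 for Gabrd, 0.974 for Tnnt1 and 0.948 for Ramp3. With Rora it was 0.988 for Shank3, 0.986 for Tiam1 and 0.963 for Ptpn4. Gabrd, Tnnt1 and Ramp3 are also in the list of thalamic genes read below.

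Paralogs, receptors and pathway partners of the 6 genes were read from a list of 34 genes, of which 22 were tested in VTA. Of these, 17 had positive differences, with a median of 0.16, against 36.2% positive and −0.047 over all tested. The single call was Prkch, the gene of protein kinase C eta, which rose by 0.82 (SE 0.15, limma adjusted p = 0.0497). Of all tested, 0.189% were called higher. Prkca, of the conventional kinases, had −0.39 (SE 0.13, adjusted p = 0.143). The Tcf7l2 relative Lef1 had 0.61 (SE 0.21, adjusted p = 0.148) and the Wnt target Axin2 0.27 (SE 0.18). Rorb, the paralog of Rora, had 0.31 (SE 0.14, adjusted p = 0.231). Cbln4 had 0.59 (SE 0.31, adjusted p = 0.297), Cbln2 0.19 (SE 0.26) and the PACAP receptor gene Adcyap1r1 −0.12 (SE 0.058, adjusted p = 0.242). Limma called none of the 25 partner genes tested in NAC or in PFC, where 2 and 5 had an unadjusted p under 0.05. Of all 27022 probe sets tested, 874 in NAC and 3181 in PFC had one. In the fit of the treatment over all 3 regions, limma called 2 of 25 (0.84% of all tested), both clock genes listed with Rora. Nr1d2 rose by 0.20 (SE 0.036, adjusted p = 0.00197), with 0.16 in VTA, 0.32 in NAC and 0.14 in PFC. Arntl fell by 0.25 (SE 0.059, adjusted p = 0.0286), with 0.03 in VTA, −0.40 in NAC and −0.34 in PFC. The change of Prkch was larger in VTA than in NAC by 1.14 (SE 0.24, adjusted p = 0.0212), the single partner called in that test (0.244% of all tested were called in that direction). Between vehicle regions, limma called 10 of 25 higher in NAC and 8 lower, beside 30.3% and 28.8% of all tested. Slc17a7, the gene of the cortical transporter VGLUT1, was higher in NAC by 2.62, opposite to Slc17a6, while Cbln4 was lower by 2.61 and Cbln2 by 1.51 on the log2 scale.

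Other genes of thalamic neurons were read in the same VTA arrays, from a list of 21 that holds none of the 6. The list was chosen with earlier results of these data known, so its counts are a description. Of 19 tested, 17 had positive differences and 2 negative, with a median of 1.00 against −0.047 over all tested. Limma called 0, and 17 had an unadjusted p under 0.05, as had 5695 of all 27022 tested probe sets. Ramp3 had 2.09 (SE 0.41, limma adjusted p = 0.0523), Tnnt1 1.89 (SE 0.39, adjusted p = 0.0534) and Gabrd 1.69 (SE 0.34, adjusted p = 0.0523), and Calb2, a calcium buffer gene, had −0.46 (SE 0.20, adjusted p = 0.223). The mean of the list in an array ran from 7.54 to 8.70 with vehicle and from 8.80 to 9.66 with modafinil, with no overlap. The modafinil difference in VTA was larger than that in PFC for 16 of 17 tested list genes, and larger than that in NAC for 16 of 17. Limma called 9 of these differences of differences against PFC and 5 against NAC, all larger in VTA (0.736% and 0.244% of all tested were called in that direction). The limit on the shared spread given above applies to these calls too. In vehicle arrays 8 of the 17 were called lower in NAC than in VTA and 4 higher, beside 28.8% and 30.3% of all tested.

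Genes of midbrain glutamate neurons and of other neuron types were read in the same arrays, from lists also chosen with earlier results known. The midbrain list holds genes of midbrain, subthalamic and mammillary glutamate neurons, and none of the 6. All 8 of its tested genes (such as Irx2, −0.72, and Irx3, −0.32, transcription factor genes) had negative differences, opposite in sign to Prkcd and Rora. All 15 tested dopamine neuron genes were negative too, and the 2 medians were −0.28 and −0.85. Limma called 0 in both lists, and 2 and 14 genes had an unadjusted p under 0.05, beside 5695 of all 27022 tested probe sets. The mean of the dopamine neuron list ran from 8.12 to 9.59 with vehicle and from 7.16 to 8.59 with modafinil, and that of 5 hypothalamic neuron genes from 7.05 to 7.68 and from 7.26 to 8.29. None of these 5 genes had a negative difference, and their median was 0.14. Limma called 0 of them, and 1 had an unadjusted p under 0.05, beside the same 5695 of 27022. Hcrt, the orexin gene, had 0.90 (SE 0.25, limma adjusted p = 0.0892) and Pmch, the gene of melanin-concentrating hormone, 1.37 (SE 0.77, adjusted p = 0.32), while Pomc, Oxt and Avp had 0.00, 0.12 and 0.14. The mean of 6 GABA neuron genes was 9.65 in vehicle array 2, which also had the lowest Prkcd, and 7.55 to 8.73 in the other 9 arrays. The part of these lists in the Prkcd and Rora differences was not tested. The fit with Th above cannot test it, since Th and treatment largely went together and Th belongs only to the dopamine neuron list.

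**Figure D5:**
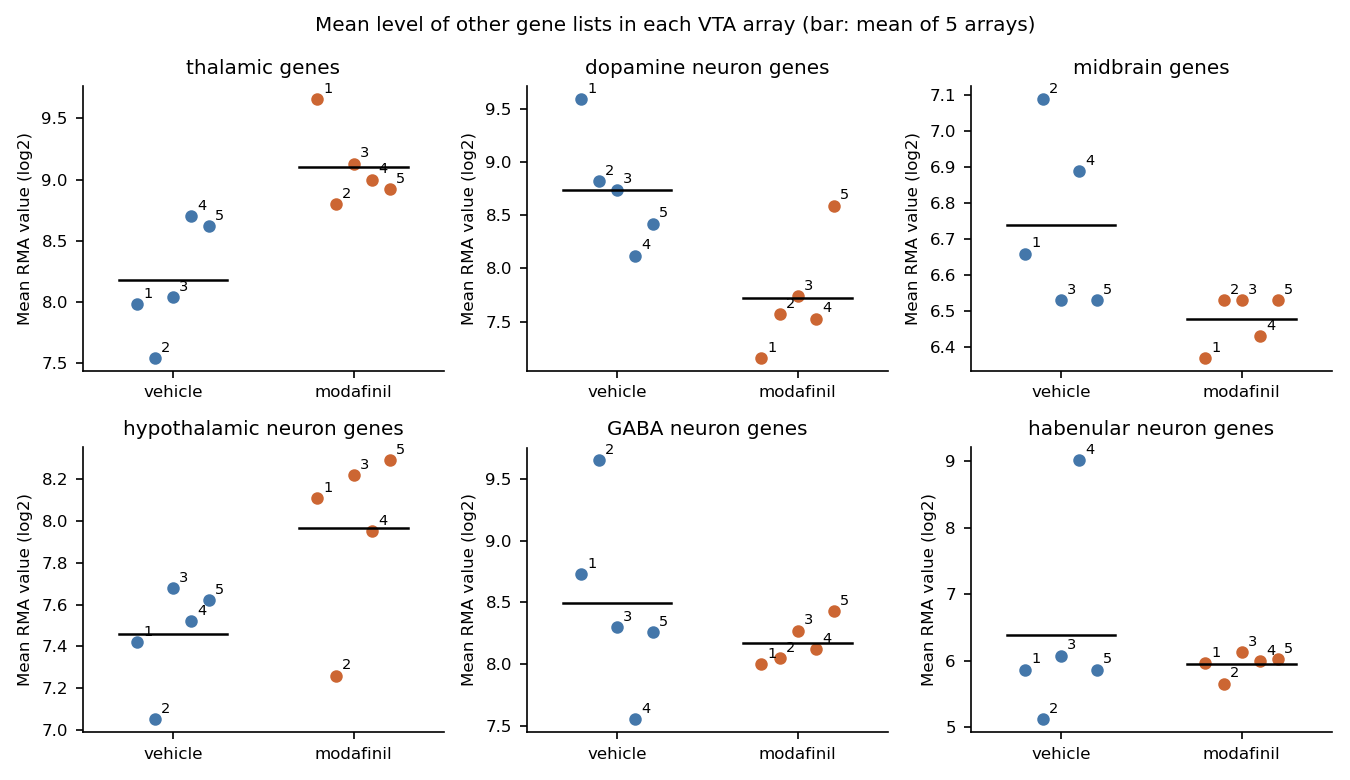
Mean log2 value of the genes of 6 lists (y axis) in each VTA array, numbered within its group, vehicle in blue and modafinil in orange, with the mean of 5 arrays as a bar. Thalamic genes lie at 8.80 to 9.66 in modafinil arrays and at 7.54 to 8.70 in vehicle arrays, and vehicle array 4 stands apart in habenular genes at 9.01.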

How the data were processed

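Messenger RNA was measured on single-colour Affymetrix mouse arrays, 1 per sample. The authors' deposited values are log2 expression values computed with RMA, per the submitters' processing notes, and were used as deposited. Raw intensities were not analysed here. Probe sets were assigned to genes by the platform annotation, whose Entrez identifiers matched RefSeq for 34741 of 34945 probe sets with 1 symbol. The members and all lists were chosen with earlier results of these data known. Of 133 list genes, 119 had a probe set under the listed name, and a gene's brightest probe set over 36 arrays was used.

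For each comparison, limma 3.58.1 (R 4.3.3; lmFit, eBayes) was run on the 27022 probe sets whose mean over its arrays reached the 40th percentile. P-values were adjusted over all of them (Benjamini-Hochberg) and called at 0.05. Treatment was tested within each region from its own arrays. The NAC and VTA levels came from a fit of all 18 vehicle arrays, and interactions from one of all 36. Correlations had 100000 permutations (SciPy, two-sided). Named partner and list genes were up to 2 per direction by smallest p in VTA, plus paralogs and receptors, and the 3 most alike by Pearson r. The 5 hypothalamic genes, Axin2, Nr1d2 and Arntl were added after their values were seen. The procedure was tested on simulated data. The number of arrays limits precision. Alternatives changed scaling, filter, weights, arrays and covariates. Replicate numbers are not known to pair vehicle with modafinil arrays and were not used as pairs in the main fits. The correlations of their deviations ran from −0.526 to 0.267, which cannot show whether pairs exist.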

Additional observations from a re-analysis of the deposited data

Results flagged for a closer look

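Single arrays stood apart from the rest of their group in 6 of 42 sets of values examined (each member and Th in each group), by the gap to the nearest array relative to the range of the group. By this rule chance marks about 1 in 20 such sets. The sets share arrays and are not independent, so whether 6 exceeds chance was not tested. Slc17a6 was low in NAC vehicle array 5 (5.86, next 8.05) and in NAC modafinil array 2 (6.59, next 8.29). Tcf7l2 was high in NAC modafinil array 2 (7.25, next 6.85) and in PFC vehicle array 4 (7.60, next 7.03). In VTA, Adcyap1 was low in vehicle array 2 (8.85, next 9.58) and Cbln1 high in modafinil array 2 (10.78, next 10.05).

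The modafinil difference in VTA was called as unlike that in NAC and PFC for Prkcd, and as unlike that in PFC for Rora. Limma's test of the difference itself was used, with the limit on the shared spread given above. For Prkcd it was larger in VTA than in NAC by 2.22 and 1.72 in the 2 probe sets, and larger than in PFC by 2.20 and 1.62. For Rora it was larger in VTA than in PFC by 1.46, 1.49, 1.44, 1.28 and 1.15 in 5 probe sets. Against NAC no Rora probe set was called, and the brightest gave 0.96.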

How the results depend on the processing

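The 3 member calls in VTA depended on the processing. The count was 6 after quantile normalization, 0 without the filter on dim probe sets, 5 with a 60th percentile filter, 1 with trend and robust estimation, 8 with array weights, 10 with all 36 arrays in 1 fit, and 0 with 1 probe set per gene or with Th as a covariate. It ran from 0 to 5 when 1 array was left out. The signs of the Prkcd and Rora differences stayed positive under each of these, at 1.60 to 2.42 and 0.94 to 1.47. The 14 calls between NAC and VTA became 7 with the 60th percentile filter, where 11 member probe sets were tested, and stayed at 13 to 14 when 1 array was left out. The 2 calls of VTA against NAC became 4 after quantile normalization, 1 with the 60th percentile filter, 6 with array weights, and 2 to 5 when 1 array was left out. The most, 5, came without modafinil array 2 of VTA, and 4 came without vehicle array 2 or modafinil array 4 of NAC or modafinil array 3 of PFC. The 7 calls against PFC stayed within 5 to 8 over the alternatives. The counts of 0 in NAC, in PFC, across regions and for the slope on Th stayed 0 under every alternative run. This included leaving out vehicle array 5 and modafinil array 2 of NAC, or vehicle arrays 3 and 4 of PFC, choices made after seeing the data.

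With the replicate number as a block, the VTA count was 0 and Prkcd had 2.16 with an adjusted p of 0.0635. With treatment and number as a random block the count of VTA against NAC was 4. The numbers are not known to pair the samples. The number of arrays, 5 a group in VTA and NAC, limits every count, and why each setting moved a count was not tested.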
